A study of Mus musculus with 15 samples.

Results

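The 197 regions described here carried p53 ChIP-seq signal in liver, spleen and thymus and ranked clearly higher in thymus than in spleen. They were drawn from 1930 regions with the same coordinates in all 3 organ lists, out of 4137 distinct regions in the series. A region was kept when its score percentile in the thymus list exceeded that in the spleen list by 20 points or more. Its percentile in the liver list also had to lie less than 30 points from the mean of the thymus and spleen percentiles. A percentile is the rank of a region's score within its whole list, with tied scores averaged, so that 100 is the top of the list. The regions were thus chosen by their scores, and the ranks below describe that choice and are not tested.

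All mice were wild type. The labels give no strain, age or sex. Each organ had 5 libraries, namely 2 taken 3 h after 2 Gy of X-rays, 2 from mice without treatment and 1 input library of chromatin without the antibody step. The series title names p53 as the protein studied. The labels tie 1 list of regions per organ to all 5 libraries of that organ, and the names of the lists mention both irradiation and IgG, although no library carries an IgG label. In all, 2405 regions were listed for thymus, 2604 for spleen and 3872 for liver. Values per library were not analysed here, so the effect of X-rays, replicate spread and read depth are unknown. Organs were taken whole, so binding in more cells and stronger binding per cell cannot be told apart. RNA was not measured in these lists, so markers of thymocytes or splenocytes could not be checked.

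The transcription factor p53 is stabilised after DNA damage and binds DNA as a tetramer. Its response element is made of a pair of half-sites of 10 bases, each with a CATG-like core. Through such elements it switches on genes of cell cycle arrest, apoptosis, DNA repair and its own feedback control. Thymus consists mainly of developing T cells, which undergo p53-dependent apoptosis readily after irradiation. Spleen holds mature B and T cells together with myeloid and erythroid cells.

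Of the 197 regions, 7 overlapped a promoter window of the RefSeq table for GRCm38.p6, the assembly that mm10 names. These windows run from 250 bases before an annotated gene start to 50 after it. The stretches below are the parts of the windows that lie inside the regions, kept to at most 30 bases after the start and written 5′ to 3′ on the strand of the gene. Shown are the 3 stretches that hold an exact match to the p53 half-site consensus, and for contrast 2 that hold none. The regions at Mrpl45 and Fam162a held none either. Capitals mark the exact matches. The Gtse1 stretch spans chr15:85859801-85859975 (plus strand) and that of Prkar1a chr11:109649201-109649392 (plus strand). The stretch of Gm29985, a long noncoding RNA gene, spans chr2:38988322-38988450 (minus strand). Those of Ndufv2 and Hs2st1 span chr17:66101530-66101650 and chr3:144570201-144570250 (both minus strand).
Gtse1: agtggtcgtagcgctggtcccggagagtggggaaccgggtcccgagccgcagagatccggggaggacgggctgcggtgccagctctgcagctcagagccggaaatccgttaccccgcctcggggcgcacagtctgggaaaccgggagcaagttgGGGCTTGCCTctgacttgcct
Prkar1a: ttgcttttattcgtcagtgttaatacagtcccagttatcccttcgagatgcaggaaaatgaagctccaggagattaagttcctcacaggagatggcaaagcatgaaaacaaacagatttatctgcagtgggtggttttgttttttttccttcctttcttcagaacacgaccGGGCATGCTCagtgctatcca
Gm29985: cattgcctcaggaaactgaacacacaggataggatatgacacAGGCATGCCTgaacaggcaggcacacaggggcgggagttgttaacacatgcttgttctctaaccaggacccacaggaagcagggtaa
Ndufv2: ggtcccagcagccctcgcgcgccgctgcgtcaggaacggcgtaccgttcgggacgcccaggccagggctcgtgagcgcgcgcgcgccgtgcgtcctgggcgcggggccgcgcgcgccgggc
Hs2st1: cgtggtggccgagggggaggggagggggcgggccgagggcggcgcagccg

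Gtse1, a p53-inducible gene that acts in the G2 phase of the cell cycle and restrains p53, had half-site-like sequence in a row. Its exact match, GGGCTTGCCT, began 9 bases after the annotated start. On its left it adjoined GAGCAAGTTG and on its right, after 1 base, came TGACTTGCCT, each of which departs from the consensus at 1 base. No other stretch held a pair of half-sites within 13 bases of each other when 1 mismatch per half-site was allowed. Prkar1a, which encodes a regulatory subunit of protein kinase A, held GGGCATGCTC, also 9 bases after the start. Gm29985 held AGGCATGCCT 57 bases before it, and further on ACACATGCTT and ATGCTTGTTC, which overlap each other and have 1 mismatch each. The stretches of Ndufv2 and Hs2st1, which had no match, consisted of G or C in 81.8% and 86.0% of bases, against 67.4% for Gtse1, 42.7% for Prkar1a and 51.9% for Gm29985.

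An exact half-site was found in 3 of the 8 promoter windows that the 7 regions touched (37.5%, exact 95% Clopper-Pearson interval 8.52 to 75.5%). Both strands were searched, which the palindromic consensus makes equivalent. The share was 37 of 239 windows (15.5%, 11.1 to 20.7%) at the other shared regions and 2745 of 32851 (8.36%) in the whole promoter table. With 1 mismatch allowed the order was the other way, with 4 of the 8 windows (50%, 15.7 to 84.3%), 67.8% of the windows at other shared regions and 70.03% of the table. The 4 letters CATG occurred in 3 of the 8 windows, in 58.2% of the windows at other shared regions and in 61.1% of the table. A pair of exact half-sites occurred in 0 of the 8 windows (upper limit 36.9%) and in 3 of the 239. A pair with 1 mismatch allowed per half-site, as at Gtse1, occurred in 1 of the 8 windows (12.5%, 0.316 to 52.7%). The share was 28 of the 239 (11.7%) at other shared regions and 6.72% in the table. With so few windows these shares overlap within their intervals. The other 190 regions had no window in the table, and their sequence was not analysed here. Intervals here and below cover counting error only.

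Among all 1930 shared regions, 10.2% met the rule and 13.1% (253 regions) met its mirror image, with spleen ranked 20 points or more above thymus and liver within the same bound. The rule fixes both counts and nothing is read from them. The thymus minus spleen difference of the 197 regions had a median of 31.4 percentile points and a range of 20.2 to 85.3, with 53 regions at 40 or more and 13 at 60 or more. Over all shared regions its median was -1.16 and its SD 25.4. In 117 cases the region stood in the upper 50% of the thymus list and the lower 50% of the spleen list. Both ranks lay above 50 in 51 cases, and neither did in 29.

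**Figure D1:**
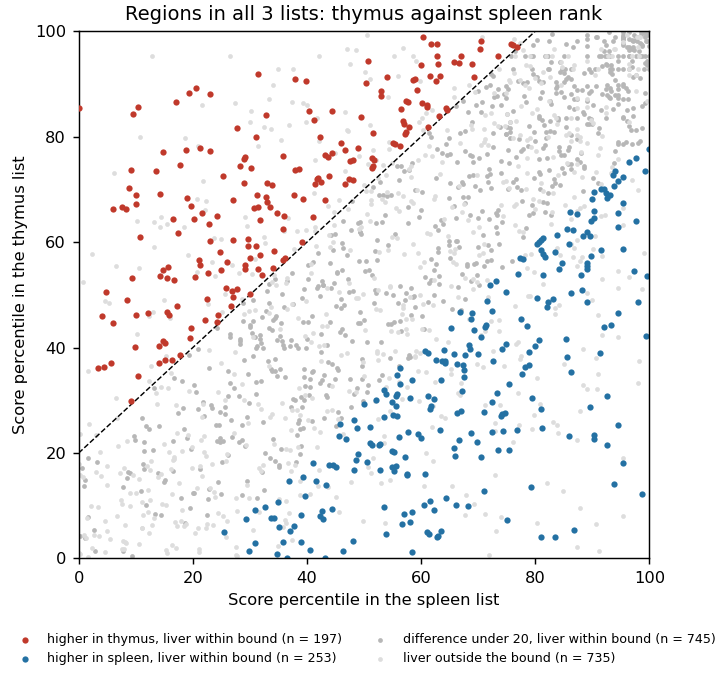
Score percentile in the thymus list (vertical) against that in the spleen list (horizontal) for the 1930 regions in all 3 lists. The dashed line marks a difference of 20 points. The 197 regions ranked higher in thymus (red) fill the upper left with spleen percentiles from 0.0960 to 76.9, and the 253 ranked higher in spleen (blue) fill the lower right.

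The liver rank lay between the other two in 128 of the 197 regions, below the spleen rank in 46 and above the thymus rank in 23. It was nearer to the spleen rank in 109 and nearer to the thymus rank in 88. At a difference of 60 points or more, as in 13 regions, the liver bound allows only a rank between the other two. Without the liver bound 326 regions (16.9% of those shared) would pass, against 422 (21.9%) for the mirrored rule, and of the 129 that the bound removed, 92 ranked too low in liver and 37 too high. The median percentiles of the 197 were 71.2 in thymus, 31.5 in spleen and 47.2 in liver. The corresponding scores, whose scale is not given and which are the authors' own, had medians of 20.7, 15.2 and 20.5. At the top of the lists, 28 of the 197 ranked at 90 or more in thymus, 0 in spleen and 9 in liver.

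At the threshold itself, the last region inside lay in Spata6 (chromosome 4, 111793501 to 111793550; 50.2 in thymus and 29.99 in spleen). It was preceded by one 26896 bp from Ankrd55 (chromosome 13, 112410901 to 112411350; 97.1 and 76.9) and one in Coro1c, which encodes a coronin that binds actin (chromosome 5, 113842901 to 113843250; 85.1 and 64.5). Just outside were regions in Tex15 (85.9 in thymus and 66.1 in spleen), near Kif20b (67.8 and 48.0) and in Lrig2 (96.2 and 76.5), with differences of 19.8, 19.8 and 19.7. The differences on the 2 sides of the threshold are thus nearly the same. At the liver bound, shown by a pair of regions picked after their values were seen, one in the phosphatase subunit gene Ppp2r5c lay just inside (78.8 in thymus, 55.1 in spleen and 37.0 in liver), and one in Cenpp just outside (97.8, 77.3 and 57.5).

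Within the set, the largest thymus minus spleen difference was at Bcl11b, a zinc finger transcription factor gene required for commitment to the T-cell lineage. A region of 250 bp inside the gene (chromosome 12, 107937601 to 107937850, mm10) scored 24.3 in thymus, 6.998 in spleen and 21.3 in liver. These scores put it at the 85.4, 0.0960 and 51.8 percentiles, close to the bottom of the spleen list and in the middle of the liver list. Its centre lay 65688.5 bp from the nearest annotated gene start, that of Bcl11b itself. A second region, picked after its values were seen, lay 102953 bp outside the gene (107807301 to 107807450). It ranked at 66.9, 19.7 and 26.0 and was 130151 bp away from the first. Exons and introns are not told apart in the annotation table used here.

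Foxp1 also had 2 regions of this kind inside the gene. The gene encodes a forkhead factor that keeps naive T cells quiescent and acts in B-cell development. The first (chromosome 6, 99370101 to 99370350) ranked at 74.6 in thymus, 17.8 in spleen and 39.9 in liver. The second, 13751 bp further on (99384101 to 99384550), ranked at 98.1, 70.5 and 77.1. Both ranked higher in thymus, although the second was also well up in the spleen list. Not every region in Foxp1 did so. One picked after its values were seen (99317301 to 99317550), 52551 bp from the first, was not in the thymus list. It ranked at 40.8 in spleen and 94.6 in liver. Runx1 encodes a Runt-domain factor needed for blood stem cells and thymocyte development. A region 169627 bp from it, picked after its values were seen, ranked at 77.9 in thymus, 21.2 in spleen and 78.1 in liver (chromosome 16, 92995701 to 92995950). It ranked in liver as high as in thymus, and at that distance its gene is uncertain.

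Genes of a list of 56 T-cell and thymocyte genes, namely Bcl11b, Foxp1 and Runx1, were the nearest coding gene of 5 of the 197 regions (2.54%). One of the 5 lay 102953 bp from Bcl11b and another 169627 bp from Runx1. The same list was nearest to 1 of 253 regions ranked higher in spleen (0.395%), 3 of 745 with a difference under 20 and liver within the bound (0.403%) and 14 of all 1930 (0.725%). Of these 14, Hes1, Lef1, Ets1, Arpp21, Nfatc2 and Tcf12 accounted for regions outside the set. One more shared region in Foxp1 (99033101 to 99033250) ranked at 87.5 in thymus and 54.2 in spleen, and stayed out because its liver percentile was 8.37. Within 5 kb of a gene of the list lay 3 of the 197 regions and 7 of all 1930. It was 0 both for those ranked higher in spleen and for those with a difference under 20. Neighbouring regions of one gene are not independent, and the list was chosen with results of these data known, so the counts describe these lists only.

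**Figure D2:**
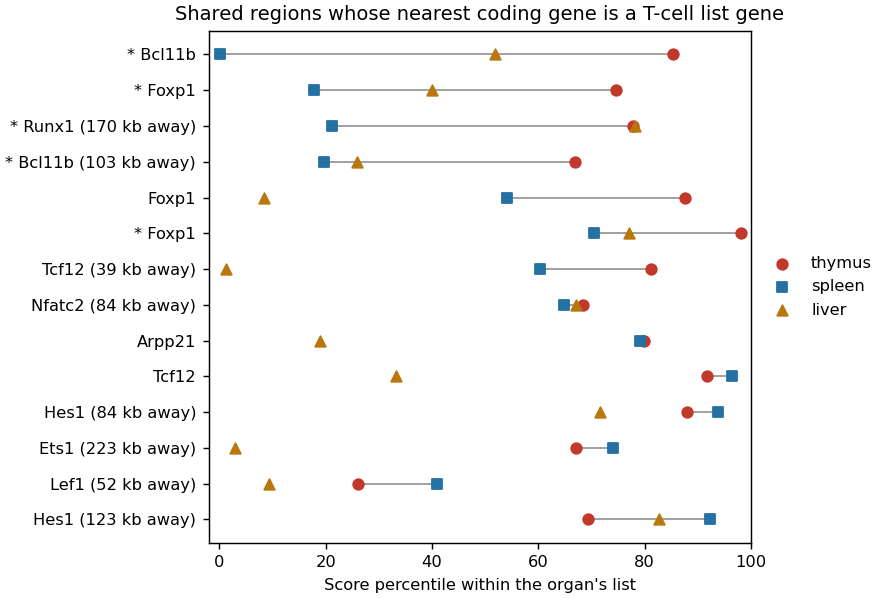
Score percentiles in thymus (red circles), spleen (blue squares) and liver (brown triangles) of the 14 shared regions whose nearest coding gene is in the T-cell and thymocyte list. An asterisk marks the 5 regions of the set, among which the region in Bcl11b ranks at 85.4 in thymus and 0.0960 in spleen, and distances are given for regions outside the gene.

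Other regions of the set lay at or near genes used in lymphocytes. They were picked after their values were seen and from no list, so they give no share and no theme of the set. Shared regions near such genes could also rank the other way. One picked likewise, 7768 bp from Cd244a, ranked at 57.3 in thymus and 89.7 in spleen. Cbfb, which encodes the partner subunit of Runx factors, had a region 612 bp outside its end (chromosome 8, 105218601 to 105218750) at 74.1 in thymus, 30.3 in spleen and 31.5 in liver. Plcg1, a phospholipase gene of T-cell receptor signalling, held one of 50 bp at 65.0, 24.2 and 27.7 (chromosome 2, 160747201 to 160747250). Il21r, an interleukin receptor gene, had a region at a distance of 9002 bp that ranked at 84.2, 32.8 and 30.3 (chromosome 7, 125594101 to 125594250). Cd38, which encodes an enzyme that consumes NAD, had one at 11359 bp that ranked at 87.7, 52.9 and 41.8 (chromosome 5, 43857001 to 43857450). In these 4 regions of the set the liver rank lay near or below the spleen rank.

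Of the p53 target genes listed, 2 had a region of the set within 5 kb. Fas, the death receptor gene, held a region of 350 bp at 86.8 in thymus, 57.3 in spleen and 65.6 in liver (chromosome 19, 34292201 to 34292550), with its centre 1716.5 bp from the start of the gene. The Gtse1 region of 250 bp (chromosome 15, 85859801 to 85860050) ranked at 56.7, 21.1 and 56.4, and Ttc38 also lay within 5 kb. Tnfaip8, picked after its values were seen, encodes an inhibitor of apoptosis and held a region at 78.8, 45.9 and 33.6 (chromosome 18, 50091401 to 50091650). Fas and Gtse1 were the only genes of the 5 lists of p53 targets with such a region within 5 kb. None lay near the 16 genes of p53 regulation, the 20 of DNA repair or the 31 of metabolism, redox and mTOR signalling. These 3 lists had 10, 4 and 11 genes near any of the 1930 shared regions. The lists of cell cycle genes, with Gtse1, and of apoptosis and cell death genes, with Fas, had 7 and 11. The set makes up 10.2% of the shared regions, so few genes could be seen and nothing is read from the zeros.

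Over 14 lists with 408 distinct genes, 5 genes lay within 5 kb of one of the 197 regions, namely Bcl11b, Foxp1, Fas, Gtse1 and Eng. Of the 408 genes, 62 lay within 5 kb of any shared region, and the set makes up 10.2% of the shared regions. Among all 21887 coding genes, 116 (0.530%) lay within 5 kb of one of the 197. Nothing is read from these counts. Eng encodes endoglin, a co-receptor for TGF-beta in endothelial cells, and its region at a gene end ranked at 49.6 in thymus, 27.1 in spleen and 21.5 in liver (chromosome 2, 32647001 to 32647150). The lists of B-cell, myeloid and erythroid, hepatocyte, NF-kB and interferon, immediate early and circadian, housekeeping and neuronal genes had 0 genes near these regions. They had 1, 0, 2, 2, 5, 1 and 1 genes near any shared region, so few could be seen at this size of set.

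After Bcl11b, the largest differences were at genes of varied function. Enox2, a cell-surface oxidase gene on the X chromosome, held a region at 85.7 in thymus, 10.4 in spleen and 51.7 in liver (49183401 to 49183550). Sorl1, a sorting receptor gene, held one at 84.4, 9.47 and 42.6 (chromosome 9, 42077501 to 42077650), 362.5 bp from an annotated start of that gene. Nrp1, which encodes a co-receptor for semaphorins and VEGF, held one at 86.6, 17.1 and 22.6 (chromosome 8, 128496301 to 128496550). All 3 stood above 84 in thymus and below 18 in spleen.

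Morc1, a gene of transposon silencing in male germ cells, held a region at 88.3 in thymus, 19.4 in spleen and 25.4 in liver (chromosome 16, 48585701 to 48585950). The olfactory receptor gene Olfr287 held one of 50 bp at 89.2, 20.5 and 41.5 (chromosome 15, 98219501 to 98219550). A region of 50 bp in Mfn1, the mitofusin gene of mitochondrial fusion, ranked at 88.1, 23.1 and 56.1 (chromosome 3, 32577901 to 32577950) and also lay within 1 kb of an end of Gnb4. These 3 stood above 88 in thymus and below 24 in spleen.

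Ankrd6 held a region at 70.3 in thymus, 8.81 in spleen and 54.7 in liver (chromosome 4, 32891801 to 32891950). Capzb, an actin capping protein gene, held one at 73.6, 13.6 and 27.7 (chromosome 4, 139193201 to 139193350). Cep120, a centriole assembly gene, held one at 69.0, 10.04 and 37.4 (chromosome 18, 53691301 to 53691350). The remaining 5 of the 15 largest differences lay outside coding genes. They were 30203 bp from Bet1 (thymus 73.7, spleen 9.24), 211813 bp from Pdgfd (77.1, 14.8), 13075 bp from Wdr44 (91.9, 31.4), 167121 bp from Dock11 (66.3, 6.01) and 67452 bp from the clock gene Npas2 (66.7, 7.57). Of these 15 regions, 6 were 50 bp wide and none was wider than 250 bp.

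**Figure D3:**
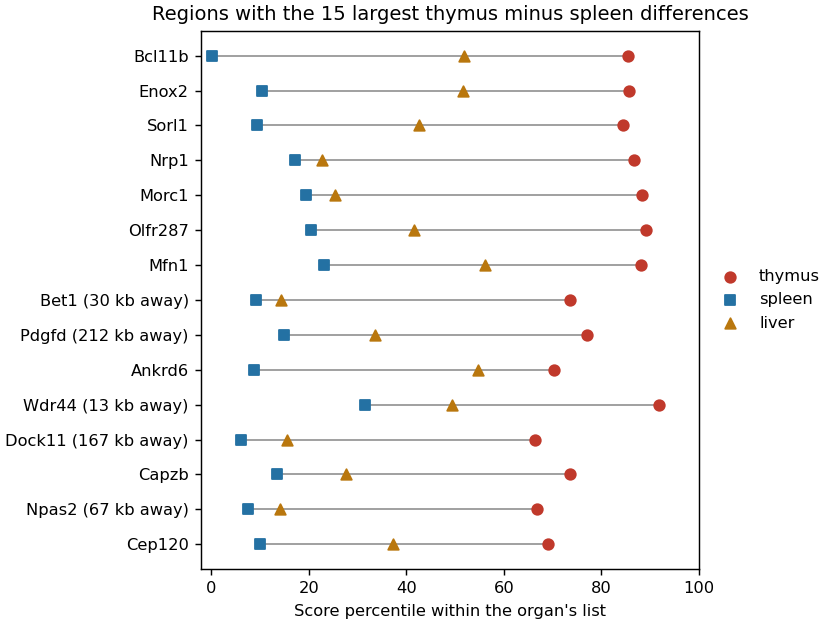
Score percentiles in thymus (red circles), spleen (blue squares) and liver (brown triangles) of the 15 regions with the largest thymus minus spleen difference, named by the coding gene they touch or by the nearest one with its distance. The thymus percentile exceeds that of spleen by 59.0 points or more in each, and the liver percentile lies between them in all 15.

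Within the set, the regions that ranked highest in thymus also ranked well in the other organs, which the liver bound favours. A shared region outside the set could rank otherwise. One in Baz2a, picked after its values were seen, ranked at 95.3 in thymus, 26.5 in spleen and 6.60 in liver. The highest of the set, at 98.9 in thymus, 60.3 in spleen and 97.5 in liver, lay at an end of a noncoding gene (chromosome 11, 79824001 to 79824450). Its nearest coding gene, Utp6, was 109506 bp away. The second region in Foxp1 came next. Smc3, which encodes a cohesin subunit, held a region at 97.6, 61.8 and 71.4 (chromosome 19, 53630001 to 53630250). Rhbdf2 held one at 97.6, 62.7 and 91.1 (chromosome 11, 116624201 to 116624550), and Myh9, a nonmuscle myosin gene, one at 97.6, 75.8 and 62.3 (chromosome 15, 77815701 to 77816150). The 97.6 is a single tied score.

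The others of the 10 highest lay 8580 bp from H2-T-ps, 26896 bp from Ankrd55, 31328 bp from Tdrd3, in Sergef and 17585 bp from the prostaglandin D receptor gene Ptgdr. The last 2 shared their thymus score with a region at Coro2b, left out of the 10 by coordinate order (chromosome names sorted as text), which ranked at 95.3 in thymus, 73.5 in spleen and 86.7 in liver. The thymus percentiles of these regions ran from 97.4 to 95.3. The region near Tdrd3 (chromosome 14, 87384501 to 87384850) ranked at 98.7 in liver, above its 96.7 in thymus and 70.3 in spleen. For 126 of the 197 regions the thymus score was shared with at least 1 other region of the thymus list, against 75 in spleen and 96 in liver. The largest group of tied scores with such a region had 40 regions in thymus, 6 in spleen and 28 in liver.

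The 2 widest regions of the set were 650 bp. That between Fam162a, a hypoxia-responsive gene, and Ccdc58 touched both genes and ranked at 90.6 in thymus, 62.6 in spleen and 88.5 in liver (chromosome 16, 36071401 to 36072050). That in Sh3gl3, an endophilin gene, ranked at 83.0, 56.9 and 70.8 (chromosome 7, 82235901 to 82236550). Regions of 550 bp lay in Scarb2, which encodes a lysosomal membrane protein (91.3, 69.3 and 69.3; chromosome 5, 92489601 to 92490150), and 29439 bp from Fabp6 (72.5, 43.8 and 75.2; chromosome 11, 43631001 to 43631550). Tab2, an adaptor gene of the TAK1 kinase, held one of 450 bp at 91.6, 63.2 and 97.6 (chromosome 10, 7919201 to 7919650), and another of that width lay 59791 bp from Tex35 (76.0, 51.5 and 33.8). In all, 12 regions were 450 bp wide, so the 10 widest were also settled by coordinate order.

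Ends of 2 coding genes met within 1 kb at 3 regions. Beside Fam162a and Ccdc58 these were Hs2st1 with Selenof and Ltk with Itpka. The region of 50 bp between Hs2st1, a heparan sulfate sulfotransferase gene, and the selenoprotein gene Selenof ranked at 36.2 in thymus, 3.48 in spleen and 35.0 in liver. Its sequence is the Hs2st1 stretch given above. Another region in Hs2st1, picked after its values were seen, 14651 bp away (chromosome 3, 144555201 to 144555550), ranked at 85.4, 64.3 and 83.8. Both Hs2st1 regions had nearly the same rank in thymus and liver. The region of Ltk, a receptor tyrosine kinase gene, and Itpka ranked at 53.6, 14.3 and 16.6 (chromosome 2, 119751501 to 119751650).

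Other regions in the promoter windows, also picked afterwards, spanned much of the lists. Prkar1a ranked at 71.4 in thymus, 42.5 in spleen and 68.3 in liver, Ndufv2, a gene of respiratory complex I, at 29.9, 9.12 and 42.4, and the Gm29985 region at 50.6, 4.8 and 3.99. Mrpl45, a mitochondrial ribosomal protein gene, ranked at 46.1, 10.1 and 23.6. Only Prkar1a of these 4 stood above 60 in thymus. The Ndufv2 percentile was the lowest thymus percentile of the whole set.

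Signalling and chromatin genes picked after their values were seen show the range of the 158 regions outside the naming rule, whose differences ran up to 58.6 points. Gsk3b, a kinase gene of Wnt and insulin signalling, held a region at 64.3 in thymus, 20.2 in spleen and 54.1 in liver (chromosome 16, 38231301 to 38231550). Smarca4, which encodes an ATPase of SWI/SNF chromatin remodelling, held one at 54.1, 22.7 and 40.7 (chromosome 9, 21670001 to 21670150). Egfr, the growth factor receptor gene, held one at 66.7, 31.4 and 27.6 (chromosome 11, 16841301 to 16841550). Cul4a, a ubiquitin ligase scaffold gene, held one at 88.9, 59.2 and 83.8 (chromosome 8, 13139801 to 13140150). Their ranks were far apart in liver and below 60 in spleen.

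Most of the set lay away from gene ends. Within 1 kb of either end of an annotated gene were 30 of 197 regions (15.2%, exact interval 10.5 to 21.0%), against 12.6% of the 253 ranked higher in spleen (8.81 to 17.4%) and 15.4% of the 745 with a difference under 20 (12.9 to 18.2%). The share was 19.4% in all other 1733 shared regions (17.6 to 21.3%), which include both of those sets. Of the 30, 17 were at the end of a coding gene and 13 only at ends of noncoding genes or pseudogenes. Inside genes away from their ends were 45.2% of the set (38.1 to 52.4%), against 37.9%, 40.4% and 39.9% in the 3 comparison sets in the same order. Outside genes were 39.6% (32.7 to 46.8%), against 49.4%, 44.2% and 40.7%. The set's intervals overlap those of the comparison sets for all 3 positions, and no test was run because regions are not replicates and each organ has 1 list.

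**Figure D4:**
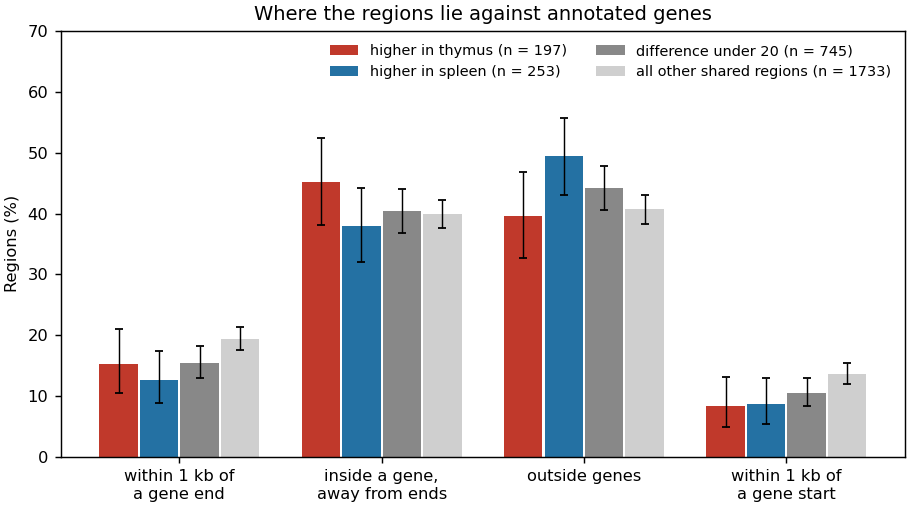
Share of regions in 4 positions relative to annotated genes for the 197 regions ranked higher in thymus, the 253 ranked higher in spleen, the 745 with a difference under 20 and all other shared regions. Bars are percent and lines are exact 95% intervals. For gene starts the sets hold 193, 243, 723 and 1677 regions. The red bars, at 15.2%, 45.2%, 39.6% and 8.29%, have intervals that overlap those of the other sets.

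Strand in the promoter table allowed distances to listed gene starts for all regions except those on chromosome 18. The table does not list a start for every gene on the other chromosomes. Of 99 regions of the set that touched a coding gene, strand was known for 86. One in Gata4, a gene of 72799 bp, is an example picked afterwards. Its nearest listed coding start, that of Defb42, was 222934 bp away. Nearer starts can therefore be missed in the distances and shares that follow. The median distance was 25319.5 bp for 193 regions of the set, against 17197.5 bp for those ranked higher in spleen and 17942.5 bp for those with a difference under 20. Within 1 kb of a start were 16 of 193 (8.29%, 4.81 to 13.1%), against 8.64%, 10.5% and 13.6% in the comparison sets including all other shared regions. At least 1 base of a coding gene was touched by 50.3% of the set (43.1 to 57.4%), against 36.0% of the regions ranked higher in spleen (30.1 to 42.2%), 43.5% of those with a difference under 20 (39.9 to 47.1%) and 46.3% of all other shared regions (43.9 to 48.7%). The interval of the set lies wholly above that of the regions ranked higher in spleen and overlaps the other 2, and the difference was not tested. Touching a gene was not a planned measure, whereas lying within 5 kb of a coding gene was. Within 5 kb lay 56.3% of the set (49.1 to 63.4%). In the comparison sets, in the same order, it was 48.2% (41.9 to 54.6%), 54.5% (50.8 to 58.1%) and 56.9% (54.5 to 59.2%). By this measure the interval of the set overlaps all the others. Where the strand was known, the regions touching a coding gene lay at a median of 43.6% of the gene's length from its start (86 regions), against 28.5% (75 regions) and 37.2% (270 regions).

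The regions were narrow. Their widths had a median of 150 bp (interval 150 to 250 bp) and a mean of 213 ± 124 bp (SD, n = 197), against medians of 250 bp in each comparison set. With a difference of 15 points or more in place of 20, the median of the resulting 258 regions was also 250 bp. The means were 228 ± 164 bp in regions ranked higher in spleen, 320 ± 243 bp in those with a difference under 20 and 273 ± 198 bp in all other shared regions. A width of 450 bp or more was found in 8.12% of the set (4.71 to 12.9%), against 10.3% (6.82 to 14.7%), 28.6% (25.4 to 32.0%) and 18.6% (16.8 to 20.5%). Width went with score rank in each list, with Spearman's rho of 0.446 in thymus, 0.421 in spleen and 0.442 in liver over all regions of the list, as a description.

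Widths were also set side by side within bands of mean rank. With the mean of the thymus and spleen percentiles between 60 and 80, the mean width was 292 bp in the set (53 regions), 289 bp in those ranked higher in spleen (64) and 317 bp in those with a difference under 20 (156). Between 40 and 60 it was 176, 209 and 198 bp (80, 95 and 136 regions), and below 40 it was 144, 138 and 137 bp (52, 78 and 188 regions). At 80 or above the set had 12 regions, with a mean of 408 bp, against 531 bp in 16 and 513 bp in 265. No consistent order between the sets was seen across these bands.

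**Figure D5:**
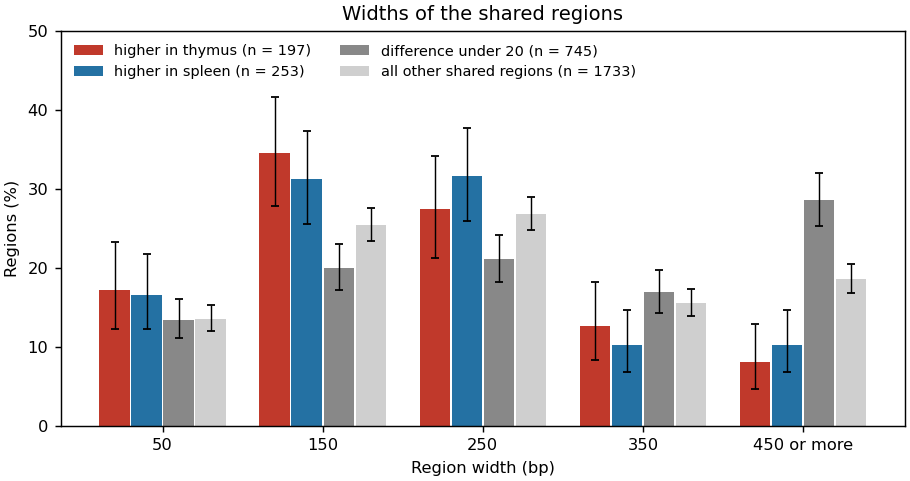
Share of regions of each width, in bp, in the same 4 sets, with exact 95% intervals as lines. Regions of 450 bp or more make up 8.12% of those ranked higher in thymus and 28.6% of those with a difference under 20, whereas 150 bp is the commonest width in the thymus set, at 34.5%.

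The regions were spread over all 20 chromosomes with shared regions. Chromosome 3 had the largest share, with 18 of its 100 shared regions in the set (18.0%), and chromosome 1 the smallest, with 9 of 157 (5.73%). The 197 regions had 193 different nearest coding genes. Only Bcl11b, Foxp1, Gja5 and Hs2st1 were nearest to 2 of them. No pair of the set lay within 10 kb, and the smallest gap was the 13751 bp in Foxp1. Near Gja5, a connexin gene picked after its values were seen, the regions lay 12652 bp and 40552 bp from the gene and ranked at 71.2 and 72.0 in thymus against 29.0 and 47.3 in spleen. A neighbouring region could rank otherwise. The region in Sergef lay 4051 bp from one at 99.8 in thymus, 92.9 in spleen and 97.1 in liver, and that near Wdr44 lay 6151 bp from one at 56.1, 69.7 and 46.0. The region in Capzb lay 451 bp from one listed in liver alone, at 33.9. Another region of any list lay within 10 kb of 10.2% of the set, against 9.88% of the regions ranked higher in spleen and 14.5% of those with a difference under 20.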

How the data were processed

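The data are 3 region lists of p53 ChIP-seq in mouse thymus, spleen and liver. The score of each region was deposited by the authors in column 5. Its scale, the region caller, the aligner and any pooling are not given in the sources at hand. Per the submitters' processing notes, coordinates are of mm10. Regions with identical coordinates in the 3 lists were kept, and scores were turned into percentiles (rank minus 0.5, divided by the list's length, ties averaged) with pandas 2.3.3 on Python 3.11.15. The members, gene lists and naming rule were chosen with earlier results of these data known. Regions named were the 15 largest differences, the 10 highest in thymus, the 10 widest, those within 5 kb of a list gene, the 3 nearest to the threshold and those at ends of 2 coding genes. Others are said to be picked afterwards. Genes and promoter sequences were from RefSeq, GRCm38.p6 (49943 genes, 21887 coding). Gene ends are within 1 kb of a region's midpoint. Of 413 list entries, 409 matched a coding gene. Intervals are exact 95% Clopper-Pearson, from SciPy 1.17.1, or binomial order statistics for medians. The member rule, the placement and the motif search were tested on simulated data. No test was run, since each organ has a single list without replicate values, and read depth is unknown. Alternatives varied the rule, the windows and the motif. Tests of radiation and of the input were not possible.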

Additional observations from a re-analysis of the deposited data

How the results depend on the processing

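Of 70 values recomputed under other settings, 60 stayed within the interval of the reported value or, for counts, within 1.5 times of it. The number of regions was 326 without the liver bound and 44 when only the higher-scoring 50% of every list was used. In that upper part the median width was 350 bp, 2 list genes were near the regions and 0% of promoter windows, of which there was 1, held a half-site. The median width was 250 bp at a difference of 15 points or more, the upper bound of its interval. Otherwise the number of regions ran between 135 and 263, and 191 of the 197 regions were among the 263 found with percentiles taken within shared regions. The share at a gene end was 8.63% with windows of 500 bp and also 8.63% with coding genes only. It was 8.29% with gene starts in place of ends, a setting chosen after the data were seen. Windows of 10 kb put 63.5% of the regions near a coding gene, against 56.3% with the 5 kb used above. With 5 kb the share over all shared regions was 56.8%. In the set, 0% of promoter windows held a pair of exact half-sites. The cause of these moves was not tested, except that wider windows take in more and narrower ones fewer regions by construction. No paired analysis was possible because the lists carry no values per library, and for the same reason no replicate could be left out. Scores without a stated scale, unknown depth and 1 list per organ limit every rank to a description of these lists.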
